A study of Mus musculus with 8 samples.

Results

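Expression of 38 marker genes of macrophages and other leukocytes was examined in the aorta of newborn mice that lacked fibulin-4 and of wild-type mice. The genes are those of a list of cell type markers, and the list was drawn up with earlier results of these data in view. A gene entered with the brightest probe set that carried its symbol alone, which was found for all 38 members, of 22180 genes measured in all. Fibulin-4 is a matrix protein that elastic fibres need for their assembly. The mice were of strain C57BL/6 and were taken at p0, the day of birth; their sex was not given. The ascending segment began at the aortic valve and ended at the ductus arteriosus, and the descending segment reached from the vena cava to the diaphragm. Each array held RNA of 8 pups, pooled by genotype and segment, and there were 2 arrays for each of the 4 groups: wild-type ascending, fibulin-4 knockout ascending, wild-type descending and fibulin-4 knockout descending aorta. Both arrays of a group are described as biological replicates, and p-values measure the spread between such pools. The labels name no promoter or cell type that would limit the loss of the gene, and whole segments were used, so no value belongs to 1 cell type.

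Macrophages settle in tissues before birth, and in an artery they lie mostly in the adventitia, its outer layer. Their identity depends on the transcription factor PU.1, their survival on the receptor for the growth factor CSF1. They take up particles and dying cells through surface receptors, many of which signal through small adaptor proteins with tyrosine motifs called ITAMs. Engulfed material is broken down in lysosomes, and an NADPH oxidase complex delivers oxidants into the phagosome. Several members, such as Ptprc, Cd53, Coro1a and Lcp1, are made by leukocytes of nearly every kind, and Csf3r also by neutrophils.

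The arrays differed in ways that the groups do not explain. The interquartile range of the log2 values was 1.80 and 1.74 on replicate 2 of wild-type ascending and wild-type descending aorta, against 2.14 to 2.28 on the other 6 arrays. Median changes, and the changes of some members, are therefore also given without both of these arrays. The targeted gene was not analysed here, and the genotypes are taken from the labels. The smooth muscle markers Acta2 and Tagln had mean log2 values of 12.2 and 11.1 and were brighter than 99.5% of all genes or more, and markers of skeletal muscle (Acta1, 8.27) and fat (Adipoq, 6.26) were present as well. With 2 arrays a group precision was limited, and the standard error had a median of 0.30 for a change in 1 segment and of 0.21 for the average.

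The first question was how the markers differ between knockout and wild-type aorta. In ascending aorta 37 of 38 members had a higher mean in the knockout, as did 49.3% of all genes, and the median log2 change was 0.81 against -0.01 over all genes. The largest were Cd53 (2.00, SE 0.37), a tetraspanin of leukocyte membranes, Mpeg1 (1.96, SE 0.50), a pore-forming protein of phagosomes with dim wild-type values, and Laptm5 (1.68, SE 0.30), a lysosomal membrane protein of blood cells. In descending aorta 33 of 38 lay above 0, as did 53.7% of all genes, with a median of 0.39 against 0.03, and Cd52 (1.59, SE 0.72) and Cd68 (1.00, SE 0.31) stood highest. Averaged over both segments, 37 of 38 lay above 0, as did 49.8% of all genes, and the median was 0.66, while that of all genes lay close to 0. In bulk tissue more cells of a type and more RNA per cell cannot be told apart.

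No member passed the threshold of limma with Benjamini-Hochberg adjustment over all genes, an adjusted p under 0.05. Over all genes that threshold was passed by 0% in ascending aorta, 0.00451% in descending aorta and 0.0721% in the average. The smallest adjusted p of a member in limma was 0.181 for both Laptm5 and Ctss in ascending aorta, 0.753 for Cd68 in descending aorta and 0.082 for Laptm5 in the average. With an unadjusted p under 0.05, 26 of 38 members were higher and 0 lower in the knockout ascending aorta, where 5.31% of all genes were higher and 3.6% lower. The same count was 6 in descending aorta, where 3.63% of all genes were higher, and 25 in the average, where 7.57% were. No member was lower in either, against 2.32% and 3.83% of all genes. Leaving out wild-type ascending replicate 2 lowered the members' median ascending change from 0.81 to 0.69, and leaving out replicate 1 of that group raised it to 1.00. It became 0.83 when knockout ascending replicate 1 was dropped, and 0.69 when both narrow arrays were. A group cut to 1 array adds nothing to the spread, which comes from knockout arrays alone once both narrow arrays are dropped. Counts at an unadjusted p from such fits cannot be compared with the 26 and 6 above. For descending aorta the members' median change was 0.39 in the full fit. Leaving out wild-type descending replicate 2 lowered it to 0.27, and leaving out replicate 1 of that group raised it to 0.52. The median change was 0.16 in descending aorta without replicate 1 of the knockout descending arrays.

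Both knockout arrays lay above both wild-type arrays in 29 members in ascending aorta and in 18 in descending aorta, where 21.5% and 21.6% of all genes did so. In 15 members this held in both segments, against 7.81% of all genes: Adgre1, Cd14, Cd68, Csf3r, Ctss, Cybb, Fcgr2b, Itgam, Itgb2, Laptm5, Mrc1, Ms4a7, Siglec1, Spi1 and Trem2. In no member did both knockout arrays of a segment lie below both wild-type arrays, as they did in 18.3% of all genes in ascending aorta, 15.8% in descending aorta and 4.04% in both. Changes over all genes followed the level: in ascending aorta the median was -0.16 in the dimmest 20% of genes and 0.25 in the brightest 20%. Of the members, 16 lay in that brightest 20%, with a median of 0.82, and 14 in the next 20%, with a median of 0.89 against 0.12 over all its genes. In descending aorta the members of the brightest 20% had a median of 0.44, against 0.23 over all its genes. Those of the next 20% had 0.37 there, against 0.15.

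**Figure D1:**
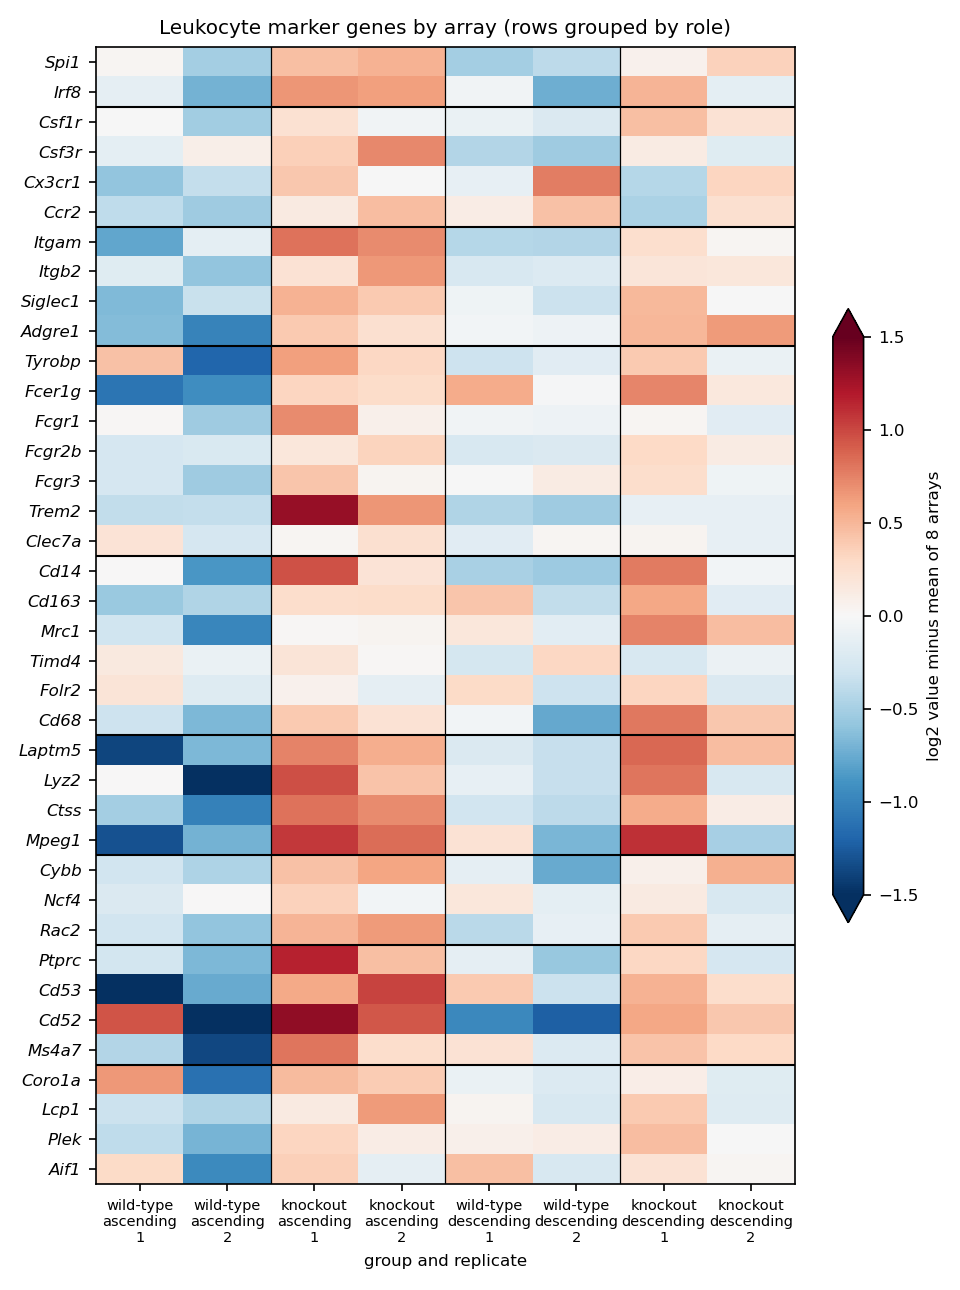
Log2 value of each of the 38 markers on each of the 8 arrays, minus the gene's mean over the arrays; red is above and blue below that mean, and colours end at 1.5. Lines part the role groups and the 4 groups of 2 arrays. The knockout ascending columns are mostly red and the wild-type ascending columns mostly blue, while the wild-type columns of Cd52, Coro1a, Tyrobp, Lyz2 and Aif1 in ascending aorta differ from each other by more than 1.

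The transcription factors came first in the order of roles. Spi1 encodes PU.1, which sets up the myeloid program, and Irf8 encodes a partner that drives monocyte and dendritic cell development. Spi1 had log2 values of 6.45 and 5.91 in wild-type and 6.87 and 6.95 in knockout ascending aorta, and of 5.91 and 6.03 in wild-type and 6.49 and 6.77 in knockout descending aorta. Its log2 change was 0.73 (SE 0.27) in ascending and 0.66 (SE 0.27) in descending aorta, and the groups did not overlap in either segment. Irf8 had log2 values of 5.31 and 4.73 in wild-type and 6.10 and 6.05 in knockout ascending aorta, and of 5.38 and 4.70 in wild-type and 5.95 and 5.29 in knockout descending aorta. The change of Irf8 was 1.05 (SE 0.34) in ascending aorta, where groups did not overlap, and 0.58 (SE 0.34) in descending aorta, where knockout replicate 2 lay below wild-type replicate 1. Irf8 was the only member with a second probe set, a dimmer one, and with the mean of both its ascending change was 0.58 in place of 1.05, with an unadjusted p of 0.0721 in limma. The second probe set alone had 5.02 and 4.95 in wild-type and 5.18 and 5.00 in knockout ascending aorta, where the groups overlapped.

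PU.1 binds DNA at sites with the core GAGGAA, and with IRF8 at the composite ETS-IRF element, which is GGAA followed by GAAA after any 2 bases. Of the 38 members, 28 had a promoter sequence in the RefSeq table used here (build GRCm38.p6), of which the 250 bases before the start were searched on both strands. Both patterns hold the letters GGAA, so their matches can overlap. The core was found in 14 of the 28 members, or 50%, against 23.1% of 27025 promoters of the same length. The composite pattern was found in 4 of 28, or 14.3%, against 2.38%. A match is a description of the letters, not a measured site. The first 4 sequences below belong to the members with the largest averaged change among those with an entry, and the last 2 to those with an averaged change closest to 0. Capitals mark matches to either pattern; Laptm5, Cd53 and Ctss hold the core, Mpeg1 holds neither, and Folr2 and Timd4 hold the composite pattern. They lie at chr4:130913066-130913315 (plus strand) for Laptm5, chr19:12460520-12460769 (plus strand) for Mpeg1, chr3:106790150-106790399 (minus strand) for Cd53, chr3:95526536-95526785 (plus strand) for Ctss, chr7:101857191-101857440 (minus strand) for Folr2 and chr11:46810549-46810798 (plus strand) for Timd4. Each is written in the direction of its gene.
Laptm5: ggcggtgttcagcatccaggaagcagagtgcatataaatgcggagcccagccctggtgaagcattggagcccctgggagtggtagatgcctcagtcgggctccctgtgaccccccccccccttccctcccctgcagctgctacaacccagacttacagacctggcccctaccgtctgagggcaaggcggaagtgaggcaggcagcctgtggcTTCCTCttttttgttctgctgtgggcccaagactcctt
Mpeg1: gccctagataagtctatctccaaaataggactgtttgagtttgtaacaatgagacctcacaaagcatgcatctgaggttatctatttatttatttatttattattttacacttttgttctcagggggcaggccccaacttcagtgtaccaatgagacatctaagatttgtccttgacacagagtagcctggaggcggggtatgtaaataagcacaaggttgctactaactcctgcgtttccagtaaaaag
Cd53: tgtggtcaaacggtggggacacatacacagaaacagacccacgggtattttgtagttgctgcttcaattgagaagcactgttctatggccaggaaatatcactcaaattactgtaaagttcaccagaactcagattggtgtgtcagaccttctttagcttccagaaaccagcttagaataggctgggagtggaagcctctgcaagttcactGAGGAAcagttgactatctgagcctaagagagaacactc
Ctss: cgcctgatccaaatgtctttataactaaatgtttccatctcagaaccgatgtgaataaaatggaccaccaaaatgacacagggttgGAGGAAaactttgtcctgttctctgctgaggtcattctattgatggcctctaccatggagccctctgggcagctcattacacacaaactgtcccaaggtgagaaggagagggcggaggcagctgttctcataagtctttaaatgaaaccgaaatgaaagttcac
Folr2: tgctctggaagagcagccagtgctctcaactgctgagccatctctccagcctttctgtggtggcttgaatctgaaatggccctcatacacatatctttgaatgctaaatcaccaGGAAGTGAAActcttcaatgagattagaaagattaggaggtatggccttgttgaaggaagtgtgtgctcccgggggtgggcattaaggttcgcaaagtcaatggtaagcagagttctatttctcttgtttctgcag
Timd4: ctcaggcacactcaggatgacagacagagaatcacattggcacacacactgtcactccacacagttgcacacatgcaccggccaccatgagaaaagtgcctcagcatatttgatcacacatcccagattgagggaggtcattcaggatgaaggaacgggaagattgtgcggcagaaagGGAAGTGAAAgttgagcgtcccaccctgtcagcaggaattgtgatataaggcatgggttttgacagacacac
The core began 38 bases before the start in Laptm5, on the opposite strand, and 39 bases before it in Cd53. In Ctss it began 164 bases before the start.

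Lysosomal and secreted proteins had the highest median of the role groups in ascending aorta, 1.60, and 0.60 in descending aorta, with all 4 above 0 in both. Laptm5 had log2 values of 5.49 and 6.20 in wild-type and 7.62 and 7.42 in knockout ascending aorta, and of 6.66 and 6.52 in wild-type and 7.73 and 7.34 in knockout descending aorta. Every knockout array of Laptm5 lay above every wild-type array, and its log2 change was 1.68 (SE 0.30), or 3.20-fold, in ascending and 0.95 (SE 0.30), or 1.93-fold, in descending aorta. The call in the average depended on the genes and arrays used: limma's adjusted p of Laptm5 was 0.0492 without the dimmest 25% of genes and 0.0434 without wild-type ascending replicate 2. Ctss encodes cathepsin S, a lysosomal protease that can cleave elastin and trims antigens. Ctss had log2 values of 7.56 and 7.05 in wild-type and 8.88 and 8.78 in knockout ascending aorta, and of 7.78 and 7.67 in wild-type and 8.62 and 8.18 in knockout descending aorta. Here too every knockout array lay above all wild-type arrays, with a change of 1.53 (SE 0.28) in ascending and 0.67 (SE 0.28) in descending aorta. Mpeg1 had log2 values of 3.85 and 4.44 in wild-type and 6.21 and 5.99 in knockout ascending aorta, and of 5.37 and 4.47 in wild-type and 6.25 and 4.66 in knockout descending aorta. Its 2 knockout descending arrays differed by 1.59, the largest difference in that group, and the change there was 0.53 (SE 0.50), or -0.26 without replicate 1 and 1.33 without replicate 2 of that group. The wild-type ascending values of Mpeg1 were as dim as those of Clec7a, so the size of its ascending change, 1.96, is uncertain. Lyz2 encodes lysozyme, which digests bacterial walls; its probe may also detect the close copy Lyz1. Lyz2 had log2 values of 8.90 and 7.39 in wild-type and 9.87 and 9.33 in knockout ascending aorta, and of 8.78 and 8.55 in wild-type and 9.71 and 8.66 in knockout descending aorta. In ascending aorta the change of Lyz2 was 1.45 (SE 0.50), and 0.70 without both narrow wild-type arrays.

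**Figure D2:**
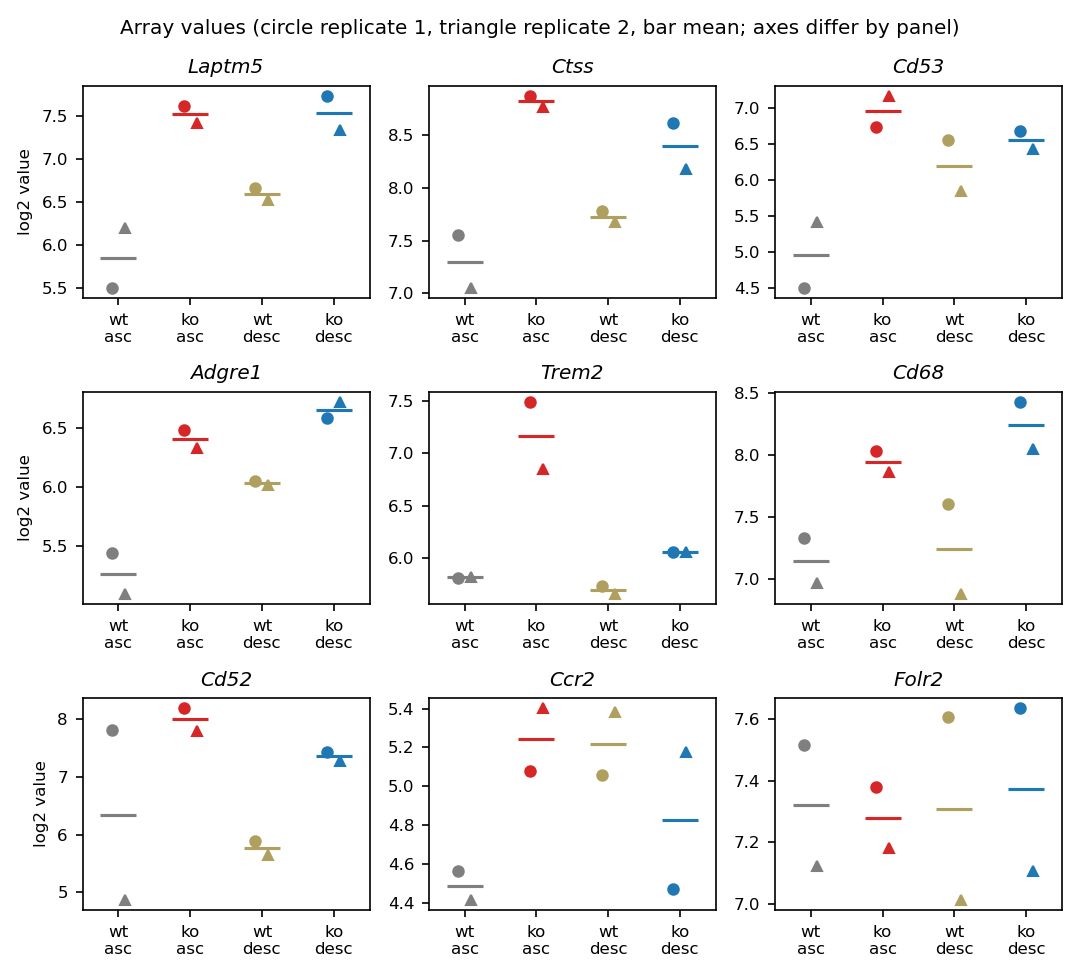
Log2 values of 9 markers on the 8 arrays, with 1 panel per gene, circles for replicate 1, triangles for replicate 2 and bars for the mean of each group (wt, wild-type; ko, knockout; asc, ascending; desc, descending). In Laptm5 and Ctss all 4 knockout arrays lie above all 4 wild-type arrays, while the wild-type ascending arrays of Cd52 lie at 7.80 and 4.86, and the groups of Folr2 overlap in both segments.

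Membrane proteins shared by leukocytes had a median change of 1.55 in ascending and 0.37 in descending aorta, and all 4 lay above 0 in both. Cd53 had log2 values of 4.49 and 5.41 in wild-type and 6.73 and 7.18 in knockout ascending aorta, and of 6.55 and 5.85 in wild-type and 6.68 and 6.43 in knockout descending aorta. The wild-type ascending arrays were the 2 lowest of the 8, and the change was 2.00 (SE 0.37), or 4.01-fold, in ascending aorta but 0.35 (SE 0.37) in descending aorta, where groups overlapped. Cd52 encodes a small glycoprotein anchored in the membrane of lymphocytes and macrophages. Cd52 had log2 values of 7.80 and 4.86 in wild-type and 8.20 and 7.80 in knockout ascending aorta, and of 5.89 and 5.64 in wild-type and 7.44 and 7.27 in knockout descending aorta. Its wild-type ascending arrays differed by 2.94, the largest difference of any member within a group. Its change in ascending aorta was 1.66 (SE 0.72) with both arrays, 0.19 without both narrow wild-type arrays and 3.14 without wild-type ascending replicate 1, when limma's adjusted p was 0.0455. In the average Cd52 then stood at 2.36, with an adjusted p of 0.0088 in limma. Ptprc encodes CD45, the phosphatase of all leukocytes, and Ms4a7 a membrane protein of macrophages. Their changes were 1.28 (SE 0.34) and 1.43 (SE 0.35) in ascending aorta, without overlap, and 0.38 (SE 0.34) and 0.36 (SE 0.35) in descending aorta.

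All 4 adhesion and surface markers separated without overlap in both segments. Itgam and Itgb2 encode the 2 chains of the integrin CD11b/CD18, which binds complement-coated particles and the endothelium. Itgam had log2 values of 5.09 and 5.72 in wild-type and 6.69 and 6.59 in knockout ascending aorta, and of 5.45 and 5.44 in wild-type and 6.13 and 5.91 in knockout descending aorta. The change of Itgam was 1.23 (SE 0.28) in ascending and 0.57 (SE 0.28) in descending aorta, and that of Itgb2 0.82 (SE 0.27) and 0.39 (SE 0.27). Adgre1 encodes F4/80, the standard surface marker of mouse macrophages. Adgre1 had log2 values of 5.44 and 5.09 in wild-type and 6.49 and 6.34 in knockout ascending aorta, and of 6.05 and 6.02 in wild-type and 6.59 and 6.73 in knockout descending aorta. Wild-type ascending aorta stood lowest, wild-type descending aorta next and the knockout groups highest, and the change was 1.14 (SE 0.25) in ascending and 0.62 (SE 0.25) in descending aorta. Siglec1, a lectin of tissue macrophages, had changes of 0.96 (SE 0.28) and 0.43 (SE 0.28).

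Among the Fc receptors, their adaptors and partners the members differed more. Tyrobp encodes DAP12 and Fcer1g the Fc receptor gamma chain, the ITAM adaptors that many activating receptors need. Tyrobp had log2 values of 9.76 and 8.14 in wild-type and 9.93 and 9.64 in knockout ascending aorta, and of 9.02 and 9.15 in wild-type and 9.72 and 9.23 in knockout descending aorta. Wild-type ascending replicate 1 lay inside the knockout range and replicate 2 far below it, and the change was 0.84 (SE 0.46), or 0.02 without both narrow wild-type arrays. Fcer1g had values of 7.75 and 7.91 in wild-type ascending aorta against 8.82 to 9.58 on the other 6 arrays. The change of Fcer1g was 1.32 (SE 0.30) in ascending aorta and 0.18 (SE 0.30) in descending aorta. Trem2 encodes a lipid receptor that signals through DAP12. Trem2 had log2 values of 5.81 and 5.82 in wild-type and 7.49 and 6.85 in knockout ascending aorta, and of 5.73 and 5.65 in wild-type and 6.06 and 6.06 in knockout descending aorta. Both knockout ascending arrays of Trem2 lay above the other 6 arrays, with a change of 1.35 (SE 0.27), or 2.55-fold, in ascending and 0.36 (SE 0.27) in descending aorta.

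Fcgr2b encodes the inhibitory receptor for IgG. Fcgr2b had log2 values of 6.05 and 6.08 in wild-type and 6.48 and 6.64 in knockout ascending aorta, and of 6.06 and 6.08 in wild-type and 6.60 and 6.42 in knockout descending aorta. Its 4 wild-type arrays lay between 6.05 and 6.08 and below the 4 knockout arrays, with changes of 0.49 (SE 0.24) and 0.44 (SE 0.24). The activating IgG receptors Fcgr1 and Fcgr3 had changes of 0.65 (SE 0.30) and 0.62 (SE 0.27) in ascending aorta and -0.01 (SE 0.30) and 0.05 (SE 0.27) in descending aorta. Fcgr2b and Fcgr3 are close in sequence in their outer part, so their probes may share signal. Clec7a, which encodes the beta-glucan receptor dectin-1, had dim values between 3.84 and 4.32 and changes of 0.15 and 0.03.

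Receptors for uptake and for microbial patterns split into members with large and with small values. Cd68 encodes a glycoprotein of late endosomes that is used to stain macrophages. Cd68 had log2 values of 7.33 and 6.96 in wild-type and 8.03 and 7.86 in knockout ascending aorta, and of 7.60 and 6.87 in wild-type and 8.43 and 8.05 in knockout descending aorta. The groups did not overlap in either segment, and Cd68 was 1 of 3 members, with Csf1r and Folr2, whose change was larger in descending (1.00, SE 0.31) than in ascending aorta (0.80, SE 0.31). Cd14 encodes the co-receptor for bacterial lipopolysaccharide. Cd14 had log2 values of 4.99 and 4.11 in wild-type and 5.94 and 5.19 in knockout ascending aorta, and of 4.50 and 4.44 in wild-type and 5.76 and 4.94 in knockout descending aorta. Its changes were 1.02 (SE 0.40) and 0.88 (SE 0.40), and replicate 1 lay above replicate 2 in all 4 groups. Mrc1 encodes the mannose receptor CD206. Mrc1 had log2 values of 7.55 and 6.86 in wild-type and 7.85 and 7.88 in knockout ascending aorta, and of 8.02 and 7.69 in wild-type and 8.59 and 8.31 in knockout descending aorta. Its changes were 0.66 (SE 0.30) and 0.60 (SE 0.30), and the knockout descending arrays lay highest.

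The other uptake receptors mark macrophages that reside in tissue. Cd163, the receptor for haemoglobin bound to haptoglobin, had changes of 0.77 (SE 0.34) and 0.17 (SE 0.34). Folr2 encodes a folate receptor. Folr2 had log2 values of 7.51 and 7.12 in wild-type and 7.38 and 7.18 in knockout ascending aorta, and of 7.61 and 7.01 in wild-type and 7.64 and 7.11 in knockout descending aorta. Knockout and wild-type arrays of Folr2 overlapped in both segments, and its changes were -0.04 (SE 0.31) and 0.06 (SE 0.31). Timd4 encodes a receptor for phosphatidylserine on dying cells. Timd4 had log2 values of 5.00 and 4.76 in wild-type and 5.05 and 4.87 in knockout ascending aorta, and of 4.59 and 5.17 in wild-type and 4.62 and 4.77 in knockout descending aorta. Timd4 had the lowest average change of the 38 members, -0.05 (SE 0.20), which changed sign in 3 of 17 alternative analyses.

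Growth factor and chemokine receptors had the smallest median of the role groups in descending aorta, 0.04, against 0.62 in ascending aorta. Csf1r encodes the CSF1 receptor. Csf1r had log2 values of 7.17 and 6.67 in wild-type and 7.41 and 7.13 in knockout ascending aorta, and of 7.08 and 6.97 in wild-type and 7.63 and 7.40 in knockout descending aorta. The knockout descending arrays lay above both wild-type descending arrays (0.49, SE 0.27), while in ascending aorta the groups overlapped (0.35, SE 0.27). Ccr2 encodes the chemokine receptor by which monocytes enter tissue, and Cx3cr1 the fractalkine receptor of resident macrophages and patrolling monocytes. Ccr2 had log2 values of 4.56 and 4.41 in wild-type and 5.08 and 5.41 in knockout ascending aorta, and of 5.06 and 5.38 in wild-type and 4.47 and 5.18 in knockout descending aorta. Its change was 0.75 (SE 0.30) in ascending aorta, where groups did not overlap, and -0.39 (SE 0.30) in descending aorta, where they did. Cx3cr1 had log2 values of 6.87 and 7.10 in wild-type and 7.86 and 7.45 in knockout ascending aorta, and of 7.34 and 8.23 in wild-type and 7.03 and 7.78 in knockout descending aorta. Cx3cr1 had changes of 0.67 (SE 0.37) and -0.38 (SE 0.37), and wild-type descending replicate 2 was its highest array. Csf3r encodes the receptor for the neutrophil growth factor G-CSF. Csf3r had log2 values of 4.30 and 4.54 in wild-type and 4.81 and 5.17 in knockout ascending aorta, and of 4.01 and 3.92 in wild-type and 4.58 and 4.26 in knockout descending aorta. Its changes were 0.57 (SE 0.26) and 0.45 (SE 0.26), at a low signal.

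Of the NADPH oxidase genes, Cybb encodes the catalytic subunit gp91phox, Ncf4 the regulatory subunit p40phox, and Rac2 the small GTPase that switches the complex on. Cybb had log2 values of 4.91 and 4.74 in wild-type and 5.64 and 5.79 in knockout ascending aorta, and of 5.06 and 4.44 in wild-type and 5.27 and 5.73 in knockout descending aorta. The groups of Cybb did not overlap in either segment, and its changes were 0.89 (SE 0.30) and 0.75 (SE 0.30). Rac2 had log2 values of 7.17 and 6.86 in wild-type and 7.96 and 8.09 in knockout ascending aorta, and of 7.05 and 7.34 in wild-type and 7.85 and 7.32 in knockout descending aorta. Rac2 had changes of 1.01 (SE 0.28) and 0.39 (SE 0.28), and knockout descending replicate 2 lay between the wild-type descending arrays. Ncf4 ranged from 4.89 to 5.46 over all arrays, with changes of 0.26 and -0.06.

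The actin and signalling proteins had a median change of 0.71 in ascending and 0.12 in descending aorta. Coro1a and Lcp1 encode coronin 1A and L-plastin, which organise the actin of leukocytes. Coro1a had log2 values of 7.44 and 5.66 in wild-type and 7.26 and 7.17 in knockout ascending aorta, and of 6.68 and 6.58 in wild-type and 6.89 and 6.60 in knockout descending aorta. Wild-type ascending replicate 1 was the highest and replicate 2 the lowest of the 8 arrays, so the ascending change was 0.66 (SE 0.47) with both arrays and -0.23 without both narrow wild-type arrays. Lcp1 had log2 values of 6.02 and 5.90 in wild-type and 6.48 and 6.98 in knockout ascending aorta, and of 6.39 and 6.10 in wild-type and 6.74 and 6.15 in knockout descending aorta. Lcp1 had changes of 0.77 (SE 0.30) and 0.20 (SE 0.30). Plek, which encodes the kinase substrate pleckstrin, had 0.76 (SE 0.27) and 0.13 (SE 0.27). Aif1, which encodes IBA1, a calcium-binding protein used to stain microglia and macrophages, had 0.44 (SE 0.42) and 0.02 (SE 0.42). The ascending change of Aif1 was -0.18 without both narrow wild-type arrays and 1.06 without wild-type ascending replicate 1.

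Whether the segments differed in the knockout effect was asked next. The ascending change was larger than the descending one in 35 of 38 members, where 47.6% of all genes lay above 0, and the median difference was 0.54 against -0.03 over all genes. With an unadjusted p under 0.05 there were 4 members, Cd53 (difference 1.65, SE 0.52), Fcer1g (1.14, SE 0.42), Ccr2 (1.15, SE 0.43) and Trem2 (0.99, SE 0.39), where 1.62% of all genes were higher and 1.68% lower. Every member had an adjusted p of 1.00 in limma, and 0% of all genes passed. With 1 array left out, the median difference was lowest, 0.36, without replicate 2 of the wild-type ascending arrays. It was highest, 0.72, without replicate 1 of the knockout descending arrays. Without both narrow wild-type arrays the median difference was 0.37. With the replicate number as a block, 7 members had an unadjusted p under 0.05, where 2.03% of all genes were higher.

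**Figure D3:**
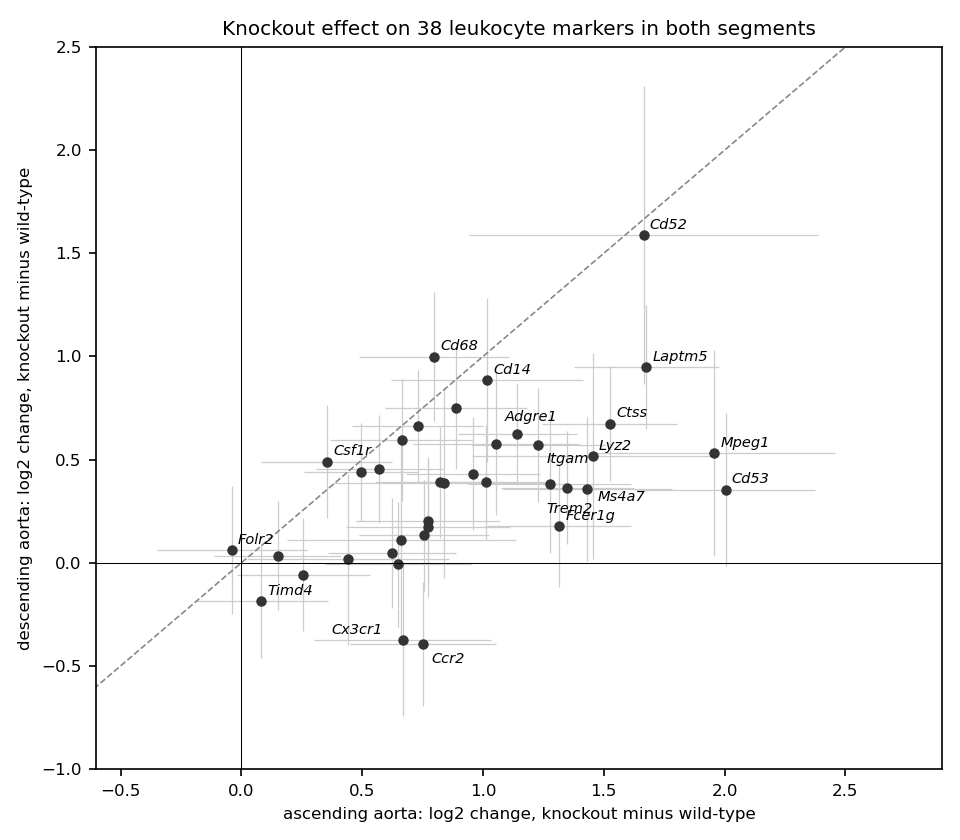
Log2 change (knockout minus wild-type) of the 38 markers in ascending aorta (horizontal axis) and descending aorta (vertical axis), each from 2 against 2 arrays; grey bars are 1 standard error from limma, and the dashed line marks equal changes. In all, 35 points lie below the line, and Cd68, Csf1r and Folr2 lie above it.

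The levels of each group place these differences. Wild-type ascending aorta had the lowest mean of the 4 groups in 29 members and knockout ascending aorta the highest in 28, where 26.8% and 23.4% of all genes did. Between the segments of wild-type aorta, 30 of 38 members lay lower in ascending aorta, with a median difference of -0.17 against 0.01 over all genes, of which 51.7% lay above 0. With an unadjusted p under 0.05, 7 were lower and 0 higher, where 2.98% of all genes were lower and 3.21% higher: Adgre1 (-0.77), Ccr2 (-0.73), Cd53 (-1.25), Fcer1g (-1.28), Laptm5 (-0.75), Ms4a7 (-0.91) and Plek (-0.64). In 15 members both wild-type ascending arrays lay below both descending arrays, against 14.1% of all genes, and in 2 they lay above, against 15.9%. The smallest adjusted p in limma was 0.437, for Fcer1g, and 0.00902% of all genes passed. The median difference was 0.01 without wild-type ascending replicate 2. The median was -0.34 without replicate 2 of the wild-type descending arrays and -0.38 without replicate 1 of the wild-type ascending arrays. Without replicate 1 of the wild-type descending arrays the median was -0.16.

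In knockout aorta 29 of 38 members lay higher in ascending than in descending aorta, with a median difference of 0.26 against -0.01 over all genes, of which 48.3% lay above 0. Trem2 (1.11, SE 0.27) and Ptprc (0.77, SE 0.34) had an unadjusted p under 0.05, where 2% of all genes were higher and 2.04% lower, 0% passed an adjusted p under 0.05, and the smallest adjusted p in limma was 0.764. In 14 members both ascending arrays lay above both descending arrays, against 18.3% of all genes, and in 3 they lay below, against 20.8%. The knockout descending arrays were unlike each other: replicate 1 lay above replicate 2 in 31 of 38 members, by a median of 0.30. The median difference was 0.08 without replicate 2 of the knockout descending arrays and 0.34 without replicate 1, and it was 0.16 without replicate 1 of the knockout ascending arrays. The median difference was 0.30 without replicate 2 of the knockout ascending arrays. These comparisons use the same arrays as the knockout effects above.

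The median over members of the deviation from each gene's mean was -0.28 and -0.59 on the wild-type ascending arrays, 0.43 and 0.36 on the knockout ascending arrays, -0.10 and -0.24 on the wild-type descending arrays, and 0.39 and -0.01 on the knockout descending arrays. Wild-type ascending replicate 2 was the lowest array in 21 members, against 17.3% of all genes, and replicate 1 in 9, against 14.7%. Knockout ascending replicate 1 was the highest in 14 and replicate 2 in 10, against 9.44% and 10.3% of all genes. Of the 5 members whose wild-type ascending arrays differed by more than 1, namely Cd52, Coro1a, Tyrobp, Lyz2 and Aif1, all were higher on replicate 1.

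Related genes outside the 38 members were followed in lists. Of all genes, 49.3% lay above 0 in ascending and 53.7% in descending aorta. At an unadjusted p under 0.05, 5.31% were higher in ascending and 3.63% in descending aorta. Of 20 further macrophage genes 20 lay above 0 in ascending aorta, with a median of 0.75, and 10 had an unadjusted p under 0.05; in descending aorta 18 lay above 0, the median was 0.36 and the count was 1. Fcgr4, an activating IgG receptor, and C3ar1, the receptor of the complement fragment C3a, are examples. Their changes were 1.66 and 1.52 in ascending and 0.30 and 0.54 in descending aorta. Of 18 measured kinases and adaptors that act downstream of ITAM receptors, 16 lay above 0 in ascending aorta (median 0.54, 7 with p under 0.05) and 12 in descending aorta (median 0.10, 2 with p under 0.05). Hcls1, a cortactin relative of blood cells, had an average change of 1.22 (SE 0.19), with an adjusted p of 0.082 in limma. All 15 measured oxidase partners and lysosomal genes lay above 0 in both segments, with medians of 0.51 and 0.50. Most of them lay in the brightest 20% of genes, where the medians over all genes were 0.25 and 0.23. Examples are Ncf1 (0.84 in the average), the organiser subunit of the oxidase, and Lipa (0.87), the lysosomal acid lipase.

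Among 10 measured factors that attract or sustain macrophages, 7 lay above 0 in ascending aorta (median 0.27, 3 with p under 0.05), among them the monocyte chemokines Ccl8 (1.20), Ccl7 (1.39) and Ccl2 (1.36). In descending aorta 8 lay above 0 (median 0.21, 1 with p under 0.05). There Ccl8 changed by 0.98, Ccl7 by 0.74 and Ccl2 by 0.23. Antigen presentation genes had a median of 0.02 in ascending aorta and 4 of 8 above 0, with H2-Aa (1.60) and H2-Ab1 (1.30), chains of class II molecules, the largest. In descending aorta their median was 0.15, with 5 above 0. Inflammatory cytokines and sensors had a median of 0.17, with 1 of 12 higher and 0 lower at p under 0.05, where 5.31% of all genes were higher and 3.6% lower. In descending aorta the median was 0.04, with 1 higher and 1 lower at that p, where 3.63% of all genes were higher and 2.32% lower. In the average Tlr7, a sensor of viral RNA, stood at 0.90 and Il1rn, an antagonist of interleukin 1, at -0.21. The cytokine Il6 stood at 0.31, at a mean log2 value of 2.43 that only 3.95% of all genes lay below. No gene of these lists passed limma's adjusted p under 0.05 in the ascending, descending or averaged effect.

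Markers of other cell types were followed in the same way, and no gene of these lists passed limma's adjusted p under 0.05 in the ascending, descending or averaged effect. Neutrophil markers had a median change of 0.87 in ascending aorta. There 11 of 14 lay above 0 and 7 were higher at an unadjusted p under 0.05, against 5.31% of all genes. In descending aorta their median was 0.13, and 3 were higher and 1 lower at that p. Of all genes 3.63% were higher and 2.32% lower there. S100a8 (1.96 in the average) and Prtn3 (0.93), proteins of neutrophil granules and cytosol, lay above 0, and Ly6g (-1.40), the surface marker of mouse neutrophils, below. T cell markers had medians of 0.17 and 0.27 in ascending and descending aorta, B cell markers of -0.01 and -0.07, NK cell markers of -0.22 and -0.03, and mast cell markers of -0.13 and -0.49. Platelet markers (5 of 7 measured) had medians of 0.27 and 0.23 in ascending and descending aorta. Red cell markers (4 of 9 measured) had -0.16 and 0.16.

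The last lists held markers of the vessel wall and of tissue near it, again with no gene past that threshold. All 10 skeletal muscle markers lay below 0 in ascending aorta, with a median of -1.61, and 9 of 10 above 0 in descending aorta, with a median of 0.55. Their median deviation was 0.77 and 1.97 on the wild-type ascending arrays and between -0.72 and 0.00 on the other 6. Wild-type ascending replicate 2 was the array with the highest skeletal muscle and the lowest leukocyte values. Adipocyte markers had medians of -0.67 and -0.97, with 9 and 10 of 10 below 0, and endothelial markers of -0.71 and -0.08, with 9 and 8 of 12 below 0. Cardiomyocyte markers had medians of 0.13 and 0.68, smooth muscle markers of 0.30 and 0.20, and fibroblast markers of 0.14 and 0.17. The part of these cell types in the values of the leukocyte markers was not tested. Without wild-type ascending replicate 2 the median ascending change of the 38 members was 0.69.

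**Figure D4:**
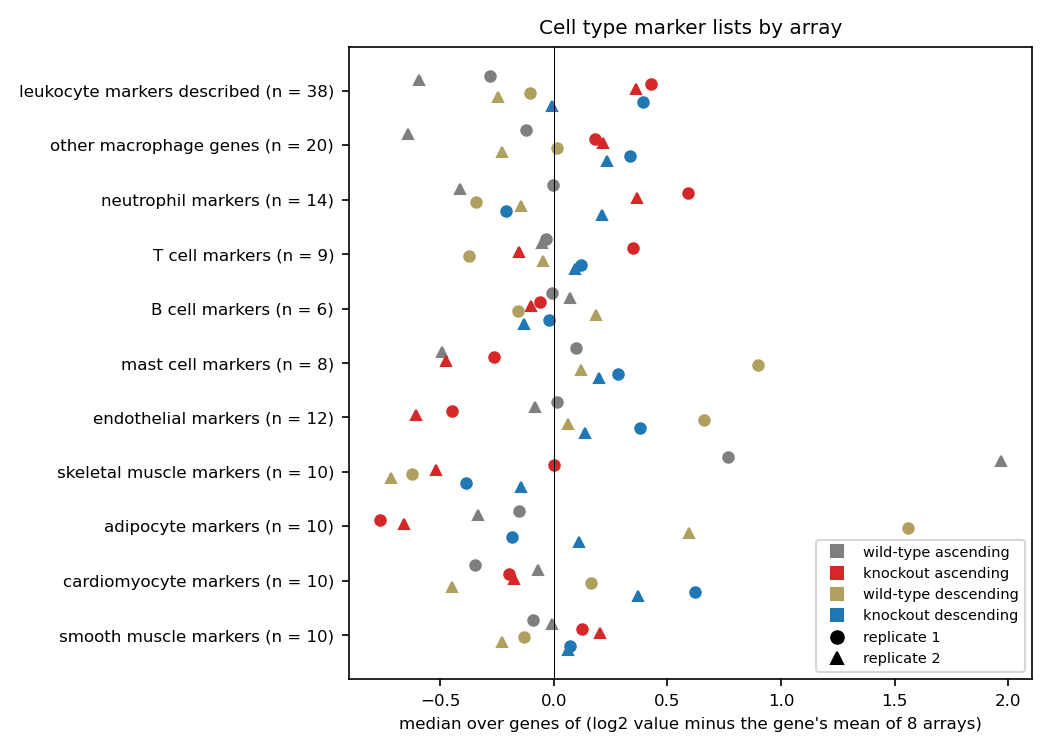
Median over the genes of a list of the log2 value minus the gene's mean over 8 arrays, for the 38 leukocyte markers and 10 further lists; each point is 1 array, coloured by group, with circles for replicate 1 and triangles for replicate 2. The leukocyte markers lie at -0.59 to -0.10 on the 4 wild-type arrays and -0.01 to 0.43 on the 4 knockout arrays, and the skeletal muscle list at 1.97 on wild-type ascending replicate 2.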

How the data were processed

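RNA from pools of 8 aortic segments was amplified from 5 ng and labelled with biotin, per the labels' protocols, and hybridised to 8 arrays. The authors deposited log2 values per probe set; the submitters' processing notes name RMA and Affymetrix Expression Console. Their versions and the genome build were not given in the sources used. RMA can compress differences of dim genes.

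Of 41345 probe sets, 23521 carried 1 gene symbol in the platform annotation, 1814 several and 16010 none. The brightest probe set per gene left 22180 genes; all 38 members matched RefSeq by gene identifier. A model with 1 mean per group and a spread shared by all 8 arrays was fitted by limma 3.58.1 (R 4.3.3) (4 residual and 5.52 prior degrees of freedom). Benjamini-Hochberg adjustment was over all genes of each of 6 comparisons, and p-values are two-sided. The procedure was tested on simulated data. Figures used matplotlib 3.10.9.

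The members and 19 further lists (197 of 213 genes measured) were chosen with earlier results of these data known. All members are named; array values are given, per role group, for the brightest member and those with the largest changes, and, chosen after their values were seen, for Ctss, Folr2 and Fcer1g. Acta2, Tagln, Acta1 and Adipoq are named as a check of the tissue. Of the lists, up to 3 genes with the smallest average p are named. Alternatives were array centring, quantile normalization, a filter on dim genes, the mean of probe sets, a replicate block, other variance models, array weights and leaving out arrays.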

Additional observations from a re-analysis of the deposited data

How the results depend on the processing

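In 17 alternatives each, all 6 medians of the members kept their direction, except the segment difference in wild-type aorta without wild-type ascending replicate 2. Leaving out 1 array at a time, the median ran from 0.69 to 1.00 in the ascending effect, from 0.16 to 0.52 in the descending effect and from -0.38 to 0.0090 in the wild-type segment difference; the causes of these shifts were not tested. The count of members called at an adjusted p under 0.05 then ran from 0 to 1 in the ascending effect and from 0 to 1 in the average, with Cd52 called in both without wild-type ascending replicate 1 and Laptm5 in the average without replicate 2. The count at an unadjusted p under 0.05 ran from 12 to 28 (ascending, higher), 1 to 10 (descending, higher), 2 to 9 (difference between segments, higher), 0 to 1 (the same, lower), 0 to 2 and 3 to 10 (wild-type segments, higher and lower), and 1 to 4 and 0 to 1 (knockout segments, higher and lower). Without both wild-type replicate 2 arrays these counts were 16 in the ascending effect, 1 lower in the difference between segments, 2 higher and 4 lower between wild-type segments, and 5 higher and 1 lower between knockout segments. After quantile normalization the median was 0.72 in the ascending, 0.24 in the descending and 0.50 in the averaged effect, and 0.58 in the difference between segments. The smallest adjusted p of a member in the average was then 0.236 in limma. At an unadjusted p under 0.05, 2 members were higher in the descending effect, where 2.63% of all genes were. Between knockout segments 1 member was lower at that p. Without the dimmest 25% of genes 1 member, Laptm5, was called in the average. With only the arrays compared, 3 members were lower between wild-type segments at an unadjusted p under 0.05. Between knockout segments 5 were higher, where 4.41% of all genes were, and 1 was lower. With array weights these counts were 4, 4 and 1, and 4.35% of all genes were higher between knockout segments. With each array centred on its median 4 were higher between knockout segments, where 2.5% of all genes were.

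With replicate number as a block, 7 members in place of 4 were higher in the difference between segments at an unadjusted p under 0.05. Of all genes 2.03% were then higher at that p. The block changed no call at an adjusted p under 0.05. Deviations of same-numbered arrays correlated by 0.29 across genes between wild-type ascending and wild-type descending aorta. For the other pairs of groups the correlation ran from -0.08 to 0.12. The labels do not say whether the numbers pair pools, and they were not taken to.

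Of the 26 members with an unadjusted p under 0.05 in ascending aorta, 12 kept it in all 17 alternatives, and of the 25 in the average 17 did, while of the 6 in descending aorta 0 did; in limma with Benjamini-Hochberg adjustment no member was called in descending aorta under any of them. None of these 26, 25 or 6 changed sign, but over all 38 members 5 changed sign in at least 1 alternative in ascending aorta, 15 in descending aorta, Cd163, Fcer1g, Lcp1, Lyz2 and Mpeg1 among them, and 6 in the average. Dim values have little signal over background on these arrays, which limits what they can show. Examples are those of Clec7a and Csf3r, most wild-type values of Mpeg1 and Cd14, and those of Ccr2 in wild-type ascending aorta.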
